A study of Mus musculus with 18 samples.

Results

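The genes described here are 36 genes of the cell cycle and of proliferation, measured by RNA sequencing in mouse left ventricle. They were taken as a fixed list of names, chosen with earlier results of these data known, and were found by gene symbol among 55450 genes of the count table. All 36 were high enough to be tested, among 16270 tested genes. By role they were 8 cyclins, kinases and a transcription factor of G1 phase and S phase entry, 3 inhibitors of cyclin-dependent kinases (CDKs), 9 genes of replication licensing and the replication fork, 3 genes of nucleotide synthesis and 13 genes of G2 phase and mitosis.

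The 18 FVB/N mice were wild type (WT) or carried a transgene for Gαq, a G protein subunit encoded by Gnaq, expressed in the heart, a model of dilated cardiomyopathy. All were male, and littermates of either genotype ate control diet (CD) or chow that held ertugliflozin (ERTU), which blocks the kidney glucose transporter SGLT2, at 0.5 mg/g from 4 to 20 weeks of age. There were 4 mice in WT CD and 5 in Gαq CD, and 5 in WT ERTU and 4 in Gαq ERTU, with 1 library of left ventricle each, so that p-values measure the spread between these mice. Libraries are named by their group and the number in the count table, which runs over the whole series.

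Cells enter the cycle when D-type cyclins with CDK4 or CDK6, and then cyclin E with CDK2, release E2F transcription factors, which switch on the genes that copy DNA. A later wave of genes, bound by complexes that recognise the cell cycle homology region (CHR), drives G2 phase and mitosis. Adult heart muscle cells have largely left the cycle, while fibroblasts, endothelial cells and immune cells of the heart can still divide, and cell cycle genes can also serve DNA repair, endoreplication and cell growth. In RNA of whole ventricle, fewer cells of a type and less RNA per cell cannot be told apart.

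Total counts ran from 15383566 to 20908363 per library. Gnaq, which checks the genotype labels, stood between 45.5 and 230 CPM (counts scaled to the library size) in the 9 WT libraries and between 1641 and 11672 CPM in the 9 Gαq libraries. Its mean ± SD was 7473 ± 3818 CPM in Gαq CD and 3216 ± 1371 CPM in Gαq ERTU. The ranges of these groups overlapped (1641 to 11672 and 2236 to 5207 CPM). The part of Gnaq level in the comparisons that involve Gαq ERTU was not tested. The 10 markers of heart muscle summed to between 73527 and 112670 CPM, so the labelled tissue held its defining markers in each library. The summed level of 4 markers of atrial muscle lay between 2.26 and 223 CPM in WT CD, 4.73 and 703 in Gαq CD, 2.45 and 247 in WT ERTU, and 24.2 and 482 in Gαq ERTU. The labels gave no batch.

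Promoter sequences are shown for 3 mitotic genes, chosen after their values were seen, to let the promoters of a group with 1 sign of the genotype difference be read, and for Rrm2, a gene of S phase that passed the test. RefSeq sequences of build GRCm38.p6 were matched for 30 of the 36 members, in 33 promoters, and the 250 bases before each start were searched on both strands. Capitals mark 2 motifs, the CHR (TTTGAA) and the CCAAT box (CCAAT, or ATTGG on the other strand), which do not overlap here. The sequences lie at chr7:135716380-135716629, minus strand for Mki67, at chr9:70421555-70421804, minus strand for Ccnb2, at chr10:69352913-69353162, minus strand for Cdk1 and at chr12:24708004-24708253, plus strand for Rrm2, and are written 5′ to 3′ on the strand of the gene.

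Mki67: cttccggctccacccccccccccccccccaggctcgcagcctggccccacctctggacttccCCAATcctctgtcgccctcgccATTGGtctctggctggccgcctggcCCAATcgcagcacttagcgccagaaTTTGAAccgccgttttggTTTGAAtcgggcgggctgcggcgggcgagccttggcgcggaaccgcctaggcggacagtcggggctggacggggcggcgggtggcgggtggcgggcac
Ccnb2: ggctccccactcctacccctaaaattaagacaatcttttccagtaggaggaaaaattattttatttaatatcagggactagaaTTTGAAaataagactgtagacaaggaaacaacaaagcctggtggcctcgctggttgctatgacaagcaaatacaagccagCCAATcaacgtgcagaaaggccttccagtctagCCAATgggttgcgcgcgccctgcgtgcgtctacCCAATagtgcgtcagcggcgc
Cdk1: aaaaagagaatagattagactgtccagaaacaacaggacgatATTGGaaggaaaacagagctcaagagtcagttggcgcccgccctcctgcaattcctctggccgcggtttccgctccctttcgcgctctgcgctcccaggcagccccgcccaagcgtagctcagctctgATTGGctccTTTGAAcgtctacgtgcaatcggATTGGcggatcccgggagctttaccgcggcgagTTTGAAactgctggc
Rrm2: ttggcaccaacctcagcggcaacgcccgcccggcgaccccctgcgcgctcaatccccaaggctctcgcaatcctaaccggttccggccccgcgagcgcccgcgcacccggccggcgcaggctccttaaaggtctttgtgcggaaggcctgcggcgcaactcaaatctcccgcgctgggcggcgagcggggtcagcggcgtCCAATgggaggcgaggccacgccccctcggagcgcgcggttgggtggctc

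Mki67 and Cdk1 each hold 2 CHR motifs, the nearest of Cdk1 beginning 15 bases before the start, and Ccnb2 holds 1. There are 3 CCAAT boxes in each of these promoters, and Rrm2 holds 1 CCAAT box and no CHR. Of the 11 promoters of the G2 and mitosis group, 6 (54.5%) held a CHR and 10 (90.9%) a CCAAT box, against 16% and 33.8% of 32851 promoters in all. The replication genes held a CCAAT box in 8 of 9 promoters (88.9%), and a CHR in 2 (22.2%). No promoter of G1 cyclins and kinases, CDK inhibitors or nucleotide synthesis held a CHR. An E2F motif (TTTCCCGC or TTTGGCGC) was found in 4 of 9 promoters of replication genes (44.4%), in 1 of 7 of the G1 group (Cdk2), in 0 of 11 of the G2 and mitosis group and in 1.3% of all promoters. These matches describe letters, not binding.

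Levels between genes are compared here only per length, as CPM per kb of exon. The mean over all libraries was highest for Cdkn1c (19.1 CPM per kb), which encodes the CDK inhibitor p57, and Ccnd1 (17.4), which encodes cyclin D1, followed by Cdkn1b (16.3), Cdk4 (15.3) and Pcna (14.4). The order differed between groups. Cdkn1c led in 3 of the 4 groups, and in Gαq CD Ccnd1 (22.4) and Ccnd2 (17.1) stood above Cdkn1c (16.9). The 13 G2 and mitosis genes stood between 0.113 (Ccnb1, cyclin B1) and 1.39 CPM per kb (Cdc20, an activator of the anaphase promoting complex). The lowest member had 155 counts over all 18 libraries, so values of single libraries of the low mitotic genes carry wide counting error. Ccnd3, Pcna, Tyms, Ccnb1 and Ccnb2 have named pseudogenes that could share their reads, so their levels are uncertain.

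**Figure D1:**
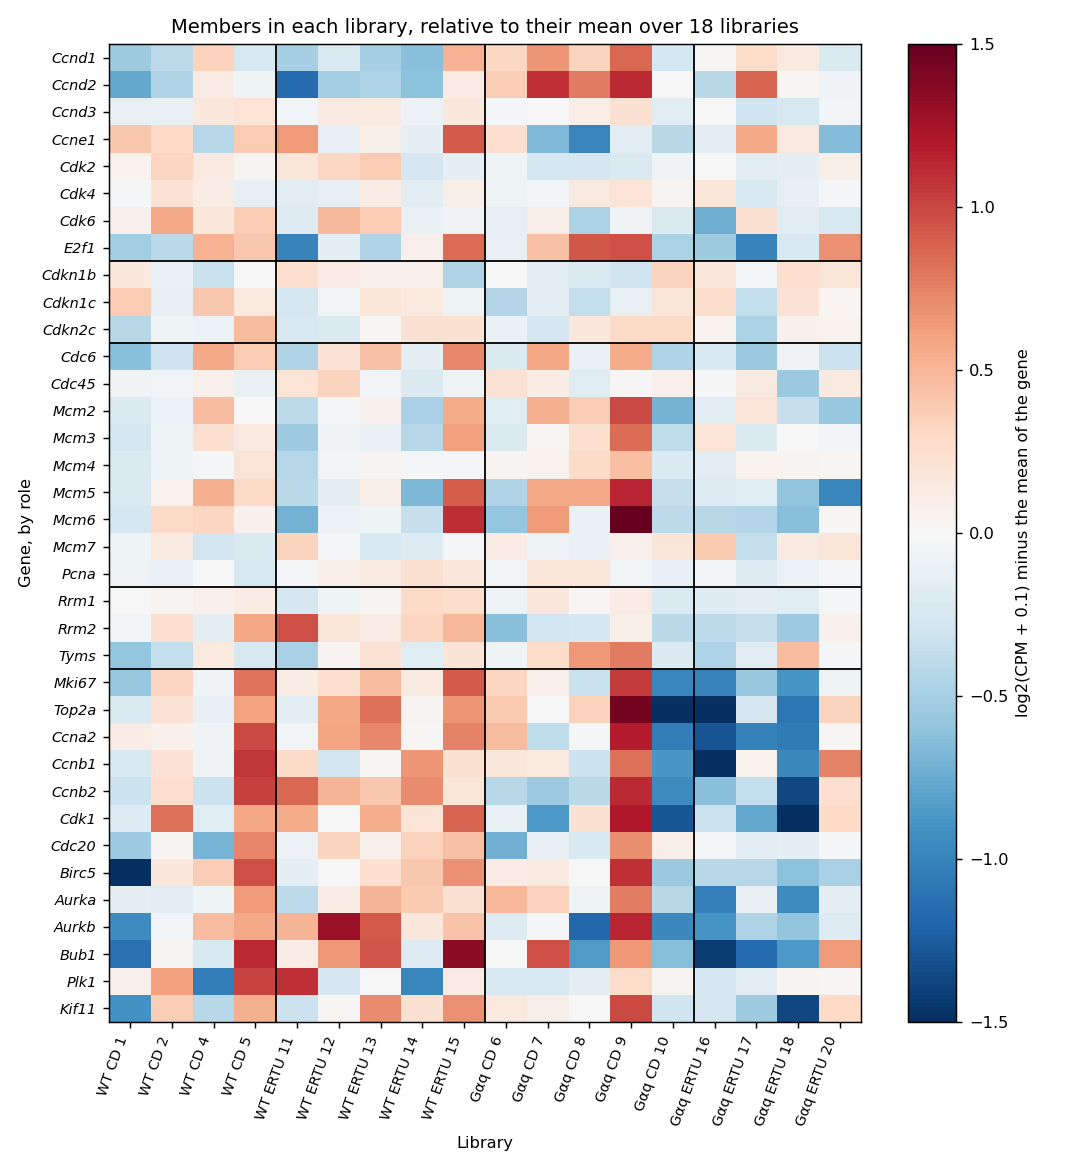
Each row is 1 of the 36 members, ordered by role with lines between roles, and each column 1 of the 18 libraries by group; the colour is log2(CPM + 0.1) minus the mean of the gene. WT CD 5 and Gαq CD 9 are red over nearly all of the 13 G2 and mitosis genes at the bottom. WT CD 1, Gαq CD 10 and Gαq ERTU 16 and 18 are blue over most of them.

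The first comparison asked which members differed between Gαq and WT hearts with diet in the model. Ccnd2 was higher in Gαq by 0.82 ± 0.20 on the log2 scale (SE; 1.77-fold, adjusted p = 0.00449, edgeR quasi-likelihood test over all genes). Rrm2 was lower by a log2 difference of -0.61 ± 0.15 (1.53-fold lower, adjusted p = 0.00634), and Cdk6 by -0.38 ± 0.12 (1.31-fold lower, adjusted p = 0.0307). The other 33 members did not pass. The 3 calls of 36 compare with 19.6% of all genes called, and the median log2 difference of the members was -0.16, with 26 below 0, against a median of 0.00 over all genes.

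Ccnd2 (ENSMUSG00000000184, chromosome 6, 127125162 to 127152193, minus strand) encodes cyclin D2, a partner of CDK4 and CDK6. Its level was 56.6, 70.4, 105 and 92.2 CPM in WT CD 1, 2, 4 and 5, and 43.3, 67.6, 70, 63.1 and 106 CPM in WT ERTU 11 to 15. It was 124, 207, 167, 210 and 96.9 CPM in Gαq CD 6 to 10, and 72.7, 177, 99.0 and 93.0 CPM in Gαq ERTU 16, 17, 18 and 20. On CD 4 of 5 Gαq libraries were above every WT library, and on ERTU only Gαq ERTU 17 was. The mean ± SD was 81.1 ± 21.6 in WT and 161 ± 49.8 in Gαq on CD (n = 4 and 5), and 69.9 ± 22.6 and 110 ± 45.7 on ERTU (n = 5 and 4).

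Rrm2 (ENSMUSG00000020649, chromosome 12, 24708241 to 24714146, plus strand) encodes the small subunit of ribonucleotide reductase, which makes deoxynucleotides for DNA synthesis. Its level was 3.00, 3.65, 2.78 and 4.65 CPM in WT CD 1, 2, 4 and 5, and 6.12, 3.51, 3.35, 3.88 and 4.38 CPM in WT ERTU 11 to 15. It was 1.97, 2.52, 2.56, 3.28 and 2.30 CPM in Gαq CD 6 to 10, and 2.32, 2.38, 2.09 and 3.26 CPM in Gαq ERTU 16, 17, 18 and 20. The genotypes overlapped on CD through Gαq CD 9 and did not overlap on ERTU. Rrm1, the large subunit of the same enzyme, differed by -0.13 ± 0.08 (adjusted p = 0.269), and Tyms, which makes thymidylate, by 0.30 ± 0.19 (adjusted p = 0.285).

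Cdk6 (ENSMUSG00000040274, chromosome 5, 3341485 to 3531008, plus strand) encodes a kinase that pairs with D-type cyclins. Its level was 18.1, 25.6, 19.3 and 22.5 CPM in WT CD 1, 2, 4 and 5, and 15.2, 24.4, 22.5, 16.2 and 16.8 CPM in WT ERTU 11 to 15. It was 15.9, 18.6, 12.4, 16.7 and 14.9 CPM in Gαq CD 6 to 10, and 10.4, 20.2, 15.4 and 14.7 CPM in Gαq ERTU 16, 17, 18 and 20. The groups overlapped on both diets. Leaving out 1 library ended the call of Cdk6 for 7 of the 18 libraries (WT CD 2 and 5, WT ERTU 12 and 13, Gαq CD 8, Gαq ERTU 16 and 20; largest adjusted p = 0.0746), while Ccnd2 and Rrm2 stayed past the threshold in each of the 18 such fits.

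**Figure D2:**
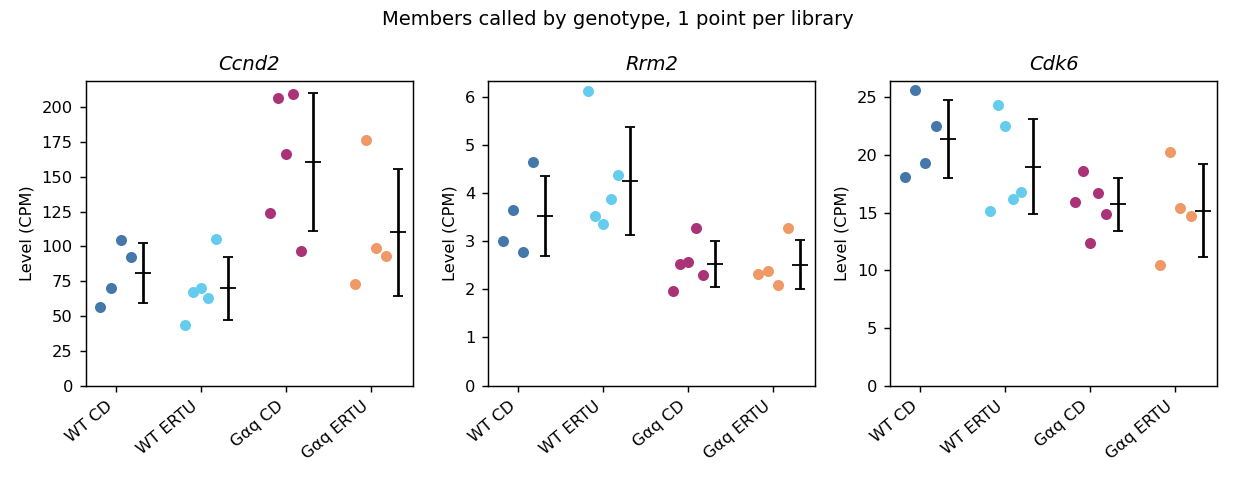
Level in CPM of Ccnd2, Rrm2 and Cdk6 in each library (points) by group, with the group mean ± SD beside them in black. Ccnd2 reached 210 CPM in Gαq CD and at most 106 CPM in WT, and the Rrm2 points of Gαq ERTU all lie under those of WT ERTU.

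Of the other genes of G1 and S phase entry, Cdk2, the partner of cyclin E, had a log2 difference of -0.24 ± 0.09 (adjusted p = 0.0553) and Ccnd1 of 0.43 ± 0.17 (adjusted p = 0.0789). Ccne1, cyclin E1, had -0.45 ± 0.23 (adjusted p = 0.183). Ccnd3, Cdk4 and E2f1 had adjusted p of 0.336, 0.974 and 0.766. On CD Ccnd1 lay between 54.2 and 99.6 CPM in WT and between 65.3 and 142 in Gαq, and on ERTU between 50.8 and 112 and between 67.6 and 94.9, so its groups overlapped.

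None of the 3 CDK inhibitors passed the test by genotype. The log2 differences were 0.05 ± 0.10 for Cdkn1b (p27), -0.16 ± 0.11 for Cdkn1c and -0.00 ± 0.12 for Cdkn2c (p18), with adjusted p from 0.356 to 0.997. None of the 9 licensing and fork genes passed either, 4 above 0 and 5 below, with log2 differences from -0.24 for Cdc6, which loads the helicase, to 0.14 for Mcm7, a helicase subunit. Mcm7 shares its strand with the microRNAs Mir25, Mir106b and Mir93 that lie within it.

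All 13 G2 and mitosis genes were lower in Gαq by sign, and none passed edgeR's test by genotype. Voom called Aurkb alone of them (-0.90, adjusted p = 0.0457), beside 3910 of all genes, and DESeq2 none, beside 3534 of all genes. Their log2 differences ran from -0.77 ± 0.36 for Aurkb, a kinase of chromosome segregation, to -0.16 ± 0.20 for Cdc20, with a median of -0.38 and adjusted p from 0.131 (Ccnb2, cyclin B2) upward. Gαq CD 9 decided this count. Without it the median of the 13 was -0.64, and 8 members were called by genotype in place of 3, beside 3149 of all genes in place of 3196, and the 5 added were mitotic genes, namely Ccnb2 (log2 difference -0.97, adjusted p = 0.0082), Aurkb (-1.10, adjusted p = 0.0114), Ccna2 (-0.87, adjusted p = 0.0206), Mki67 (-0.70, adjusted p = 0.0266) and Cdk1 (-0.86, adjusted p = 0.0335). Without WT ERTU 15, 5 members were called, Ccnd1 and Cdk2 beside the 3, and 3048 of all genes.

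The genotypes were also compared on each diet alone, in a model with 1 mean per group. On CD only Ccnd2 was called (log2 difference 0.99 ± 0.28, 1.98-fold, adjusted p = 0.0336), beside 8.1% of all genes, and 22 of 36 members were above 0. The call of Ccnd2 on CD was lost without WT CD 1, WT CD 2, Gαq CD 7, Gαq CD 8 or Gαq CD 9, with adjusted p up to 0.129. On ERTU only Rrm2 was called (-0.75 ± 0.22, 1.68-fold lower, adjusted p = 0.0363), beside 8.17% of all genes, and 27 of 36 members were below 0. That call was lost without WT ERTU 11 or 15 or Gαq ERTU 16, 17 or 18, with adjusted p up to 0.121. On ERTU 4 members were called without Gαq CD 9 (Rrm2, Mki67, Ccna2 and Aurkb), 3 without Gαq CD 10 and 2 without Gαq ERTU 20. Of all genes, 1324, 1341 and 983 were called in these fits, in place of 1330.

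By role, the G2 and mitosis genes stood near 0 on CD and below it on ERTU. On CD 6 of the 13 were above 0 and 7 below, with a median log2 difference of -0.04, which lay at -0.34 without Gαq CD 9 and at 0.23 without WT CD 5. On ERTU all 13 were below 0, from -1.38 ± 0.48 (Aurkb) to -0.25 ± 0.41 (Plk1, a mitotic kinase), with a median of -0.94. None of them passed edgeR's test after adjustment, beside 8.17% of all genes that did. The nearest were Ccna2, cyclin A2 (-1.22 ± 0.40, adjusted p = 0.0688), Mki67, the proliferation marker Ki-67 (-0.997 ± 0.34, adjusted p = 0.0738), and Aurkb (adjusted p = 0.0858). DESeq2 called Mki67 (adjusted p = 0.0271) and Ccna2 (adjusted p = 0.0275) on ERTU, and voom called Mki67, Ccna2, Ccnb2 and Aurkb (adjusted p from 0.0207 to 0.0411). DESeq2 called 1749 and voom 2755 of all genes on ERTU, in place of 1330 by edgeR. The comparisons on CD and on ERTU share the spread estimated over all 18 libraries, and the difference between them is the interaction given below.

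The 3 nearest genes are given here in each library, although they did not pass edgeR's test. Mki67 (chromosome 7, 135689784 to 135716361, minus strand) was at 6.29, 11.8, 9.03 and 16.6 CPM in WT CD 1, 2, 4 and 5, at 10.1, 11.1, 13.1, 10.3 and 17.9 CPM in WT ERTU 11 to 15, at 11.7, 9.92, 7.46, 19.5 and 4.73 CPM in Gαq CD 6 to 10, and at 4.63, 6.32, 5.03 and 8.92 CPM in Gαq ERTU 16, 17, 18 and 20. Every Gαq ERTU library was below every WT ERTU library. Ccna2 (chromosome 3, 36564865 to 36572150, minus strand) was at 2.42, 2.34, 2.14 and 4.52 CPM in WT CD, 2.16, 3.40, 3.73, 2.25 and 3.80 CPM in WT ERTU, 3.14, 1.69, 2.20, 5.19 and 1.03 CPM in Gαq CD, and 0.853, 1.05, 1.02 and 2.25 CPM in Gαq ERTU, in the same order of libraries. Gαq ERTU 20 reached the lowest WT ERTU libraries. Aurkb (chromosome 11, 69045647 to 69051664, plus strand) ran from 0.734 to 1.73 CPM in WT ERTU and from 0.305 to 0.551 CPM in Gαq ERTU, and from 0.229 to 1.55 CPM in Gαq CD.

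**Figure D3:**
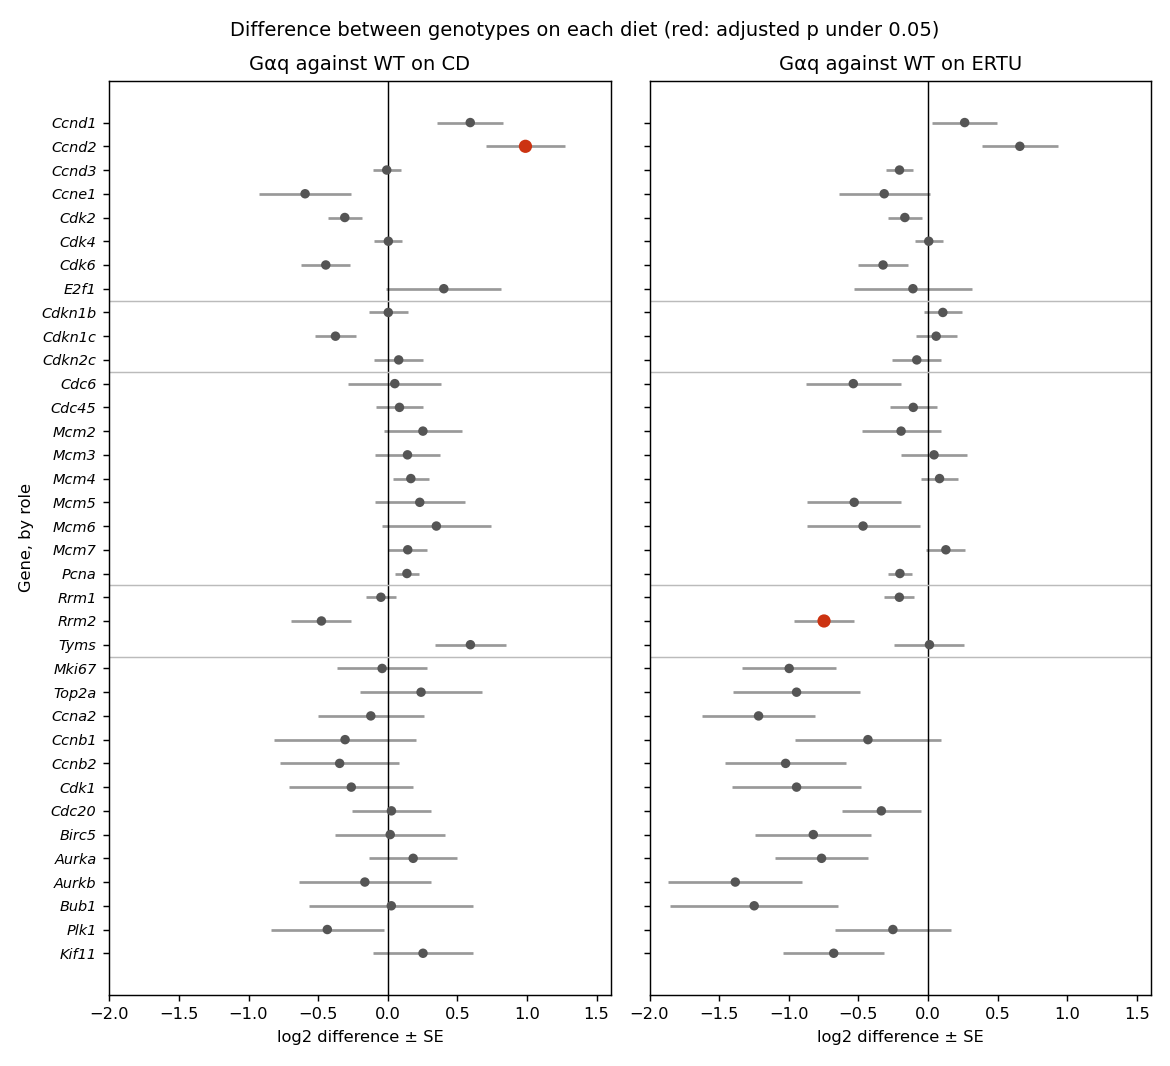
Log2 difference between Gαq and WT ± SE for each of the 36 members, on CD (left) and on ERTU (right), with members past an adjusted p of 0.05 in red and grey lines between roles. Only Ccnd2 on CD and Rrm2 on ERTU are red, and the 13 G2 and mitosis genes at the bottom all lie left of 0 on ERTU, from -1.38 to -0.25.

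All 13 mitotic genes had their lowest group mean in Gαq ERTU. Their mean log2 CPM per library was 0.75 ± 0.57 (SD) in WT and 0.66 ± 0.61 in Gαq on CD, and 0.995 ± 0.19 and 0.14 ± 0.47 on ERTU. Within WT CD, Gαq CD and Gαq ERTU the genes mostly followed the library. This was weaker in WT ERTU, where WT ERTU 15 was the highest for 6 of the 13, and WT ERTU 11 the lowest for 7 and the highest for 2. WT CD 5 was the highest of its group for 12 of the 13, Gαq CD 9 for 12 and Gαq ERTU 20 for 9, while WT CD 1 and Gαq CD 10 were each the lowest of their group for 9 and Gαq ERTU 16 for 8.

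The comparison of diets asked whether ERTU changed the members. None of the 36 was called by diet with genotype in the model, and none had an unadjusted p under 0.05. DESeq2 and voom called 0 members too, and edgeR called 0% of all genes, 1252 of them having an unadjusted p under 0.05. Of the members 28 lay below 0, with a median log2 difference of -0.11.

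The 3 members with the smallest p by diet were Mcm5, Ccnd2 and Cdkn1b. Mcm5 (chromosome 8, 75109569 to 75128439, plus strand), a subunit of the replicative helicase, was at 4.15, 5.01, 7.0 and 5.90 CPM in WT CD 1, 2, 4 and 5, at 3.60, 4.35, 5.16, 2.99 and 9.15 CPM in WT ERTU 11 to 15, at 3.50, 7.21, 7.18, 10.7 and 3.75 CPM in Gαq CD 6 to 10, and at 4.20, 4.21, 3.16 and 2.39 CPM in Gαq ERTU 16, 17, 18 and 20. Its log2 difference was -0.51 ± 0.25 (adjusted p = 0.65), and the diets overlapped in both genotypes. Ccnd2, whose values are given above, had -0.38 ± 0.19 (adjusted p = 0.652). Cdkn1b (chromosome 6, 134920401 to 134925513, plus strand) was at 81.8, 68.4, 58.2 and 73.3 CPM in WT CD, 87.2, 79.8, 77.2, 77.6 and 53.8 CPM in WT ERTU, 72.7, 65.5, 62.9, 59.7 and 92.1 CPM in Gαq CD, and 82.1, 71.9, 86.5 and 82.9 CPM in Gαq ERTU, in the same order. Its log2 difference was 0.15 ± 0.10 (adjusted p = 0.702).

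Within each genotype no member was called for ERTU either. In WT, 1 member (Pcna, the sliding clamp of DNA polymerase, 0.22 ± 0.09) had an unadjusted p under 0.05, 365 of all genes did, and 0% of all genes were called. In Gαq, 4 members did (Mcm5, Mki67, Ccna2 and Aurka). The number of all genes with such a p in Gαq is not reported here, so these 4 were not read against it. Of the 36 members 30 were below 0 in Gαq with a median of -0.31, and 0.00615% of all genes (1 gene) were called. All 13 mitotic genes were below 0 in Gαq, from -0.99 ± 0.40 (Ccna2) to -0.03 ± 0.42 (Plk1), with a median of -0.61, which was -0.97 without Gαq ERTU 20 and -0.39 without Gαq CD 9. In WT 11 of the 13 were above 0, with a median of 0.19, which was 0.11 without WT ERTU 15, 0.09 without WT CD 4 and 0.04 without WT CD 1, and 0.47 without WT CD 5.

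The interaction, which tests whether ERTU acted differently in the genotypes, called no member and 0% of all genes. Pcna (-0.34 ± 0.12) was the 1 member with an unadjusted p under 0.05, beside 313 of all genes. The 13 mitotic genes had a median interaction of -0.93 (-0.63 to -1.20 with 1 library left out), from -1.27 ± 0.85 (Bub1, a checkpoint kinase) to 0.18 ± 0.58 (Plk1), each with an adjusted p of 1.00. DESeq2 and voom called 0 members in these 3 comparisons.

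Among 115 other genes of the pathway, 110 could be tested, and 9 were called by genotype (8.18%, against 19.6% of all genes), 3 higher and 6 lower. Of these 110 genes 80 lay below 0, with a median of -0.12. The largest fall was that of Cenpf, a protein of the kinetochore and of replicating nuclei (chromosome 1, 189640606 to 189688086, minus strand), by 1.79 ± 0.22 on the log2 scale (3.47-fold, adjusted p = 7.04e-06). On CD it lay between 10.4 and 22.6 CPM in WT and between 4.07 and 8.64 in Gαq, and on ERTU between 9.89 and 29.9 and between 3.29 and 5.97, with no overlap between genotypes on either diet. Spc24, a subunit of the NDC80 kinetochore complex, fell by 1.01 ± 0.14 (adjusted p = 3.18e-05) and Melk, a mitotic kinase, by 1.05 ± 0.36 (adjusted p = 0.0457). Of the 40 other mitotic genes tested, these 3 were called, 34 were below 0 and the median was -0.31.

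Gmnn, geminin, which holds back relicensing of DNA, fell by 0.59 ± 0.08 (adjusted p = 1.11e-05), from 51.5 to 60.1 CPM in WT CD and 56.0 to 76.0 in WT ERTU to between 30.8 and 44.9 in Gαq CD and between 39.0 and 45.2 in Gαq ERTU. Orc6, of the origin recognition complex, rose by 0.33 ± 0.09 (adjusted p = 0.00954). Dut, which clears dUTP, fell by 0.28 ± 0.09 (adjusted p = 0.0247), and Chek2, a kinase of the DNA damage response, fell by 0.40 ± 0.12 (adjusted p = 0.0263). Cdkn2b, the CDK4 and CDK6 inhibitor p15, rose by 0.88 ± 0.25 (adjusted p = 0.0158), and Btg1, an antiproliferative p53 target, rose by 0.31 ± 0.08 (adjusted p = 0.0057). None of the 15 other genes of G1 phase and S phase entry was called (Ccne2, E2f2 to E2f8, Rb1, Rbl1, Rbl2, Tfdp1, Tfdp2, Cdc25a and Myc). Gmnn, Cenpf and Spc24 were also called on each diet alone.

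**Figure D4:**
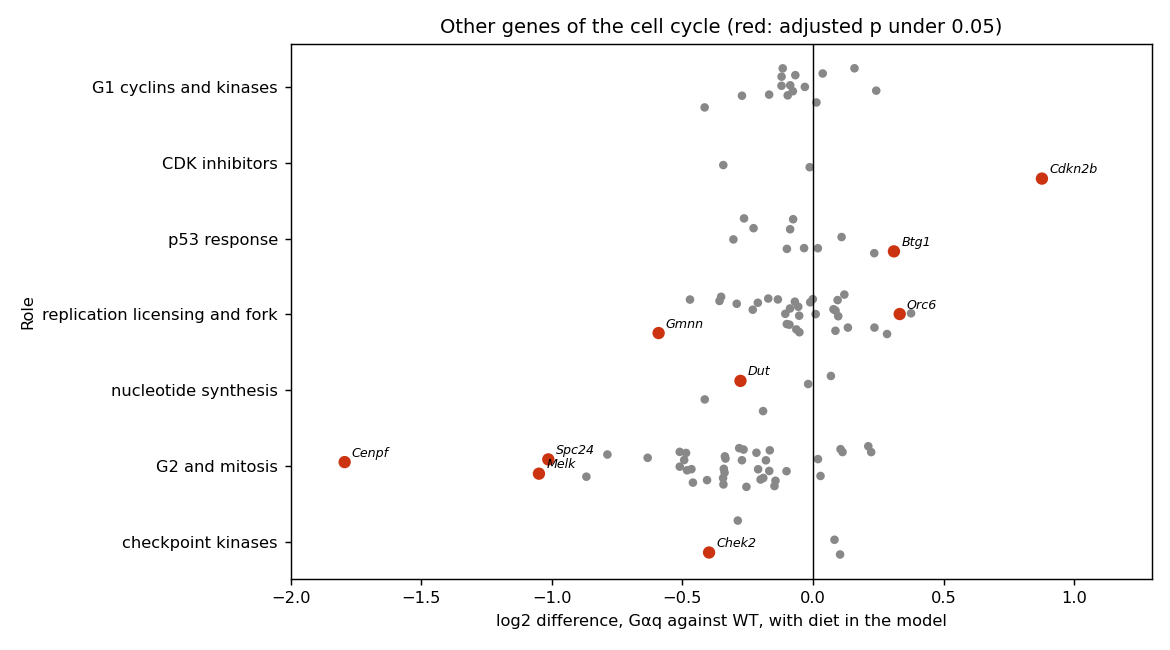
Log2 difference between Gαq and WT with diet in the model for 110 other genes of the cell cycle, 1 point per gene in rows by role, with the 9 genes past an adjusted p of 0.05 in red and named; the vertical scatter within a row has no meaning. Most points of the G2 and mitosis row lie left of 0, with Cenpf farthest at -1.79.

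The levels of fibroblast and immune markers were set beside the members in each library. Of 10 fibroblast markers all were above 0 by genotype and 8 were called higher in Gαq, with a median log2 difference of 0.67, and their summed level lay between 1902 and 3520 CPM in WT and 3476 and 5424 in Gαq on CD, and between 1735 and 3219 and 3613 and 4095 on ERTU. Of 10 macrophage markers 9 were above 0 by genotype (median 0.22) and 1 was called higher, and their sum ran from 265 to 430 and 330 to 493 CPM on CD, and 288 to 349 and 303 to 420 on ERTU, in the same order. All 6 lymphocyte markers that could be tested were above 0 and 2 were called higher, and the sum of all 10 listed ran from 3.39 to 5.96 and 7.01 to 10.7 CPM on CD, and 2.70 to 4.51 and 4.49 to 8.04 on ERTU. No marker on these 3 lists had a group mean of 0, but Cd8a was at 0 in at least 1 library. Of 8 endothelial markers 6 were below 0 by genotype, with a median of -0.20 and a range from -0.29 to 0.59, and 2 (Cdh5 and Tie1) were called lower. Other lists also lay mostly below 0. They were 7 of 10 cardiomyocyte markers (3 called lower and 1 higher), 5 of 7 mural cell markers (1 called lower and 1 higher) and 4 of 4 tested red blood cell markers (0 called). The part of these cell types in the differences of the members was not tested.

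Within groups, the slope of each gene on the mean log2 CPM of the markers was fitted for all genes with 1 mean per group in the model. No member was called for the fibroblast mean, beside 2.79% of all genes called (454 genes, but 172 without WT CD 5, 190 without Gαq CD 8 and 231 without WT ERTU 14), and 2 members had an unadjusted p under 0.05, Mcm4 (slope 0.40 ± 0.16 log2 per log2 unit, adjusted p = 0.264) and Mcm7 (-0.39 ± 0.18, adjusted p = 0.335), both subunits of the helicase. Of the 13 mitotic genes 12 had a slope above 0, with a median of 0.66, the steepest being Ccnb1 (1.10 ± 0.64, adjusted p = 0.505). Slopes of 25 of the 36 members were above 0, with a median of 0.14, against -0.03 over all genes. The same fibroblast mean moved with atrial markers, 3 of 3 tested being called with slopes from 7.65 to 9.10, and with fat markers, 4 of 4 being called. WT CD 5, Gαq CD 9 and Gαq ERTU 20, the highest of their groups in mitotic genes, held 223, 153 and 482 CPM of summed atrial markers. WT ERTU 15, the highest of WT ERTU in mitotic genes, held 9.28 CPM. Gαq CD 8, with 703 CPM, and WT ERTU 14, with 247 CPM, were not the highest of their groups in mitotic genes. The part of atrial RNA in these slopes was tested only by adding the atrial mean to the model, which was chosen after seeing the data: 9 of 13 mitotic slopes were then above 0, with a median of 0.43, and 0 of all genes were called.

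No member was called for the macrophage mean (0.4% of all genes called, 65 genes, but 0 without Gαq CD 8 and 141 without Gαq ERTU 17), and no member had an unadjusted p under 0.05. The nearest was Cdk6 (slope -0.70 ± 0.34, adjusted p = 0.445), and 9 of the 13 mitotic genes had a slope below 0, with a median of -0.27. No member was called for the lymphocyte mean (0% of all genes), and Ccne1 (-1.0 ± 0.35), Pcna (0.22 ± 0.10) and Plk1 (-0.98 ± 0.45) had an unadjusted p under 0.05, each with an adjusted p of 0.806, beside 951 of all genes. These slopes were fitted with edgeR alone.

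**Figure D5:**
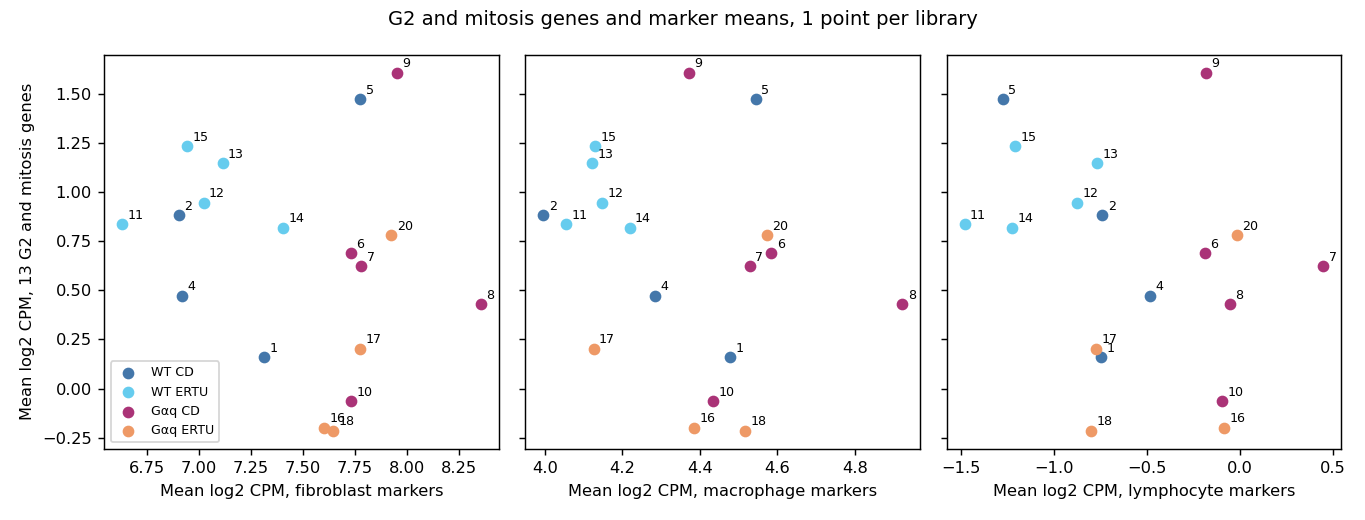
Mean log2 CPM of the 13 G2 and mitosis genes against the mean log2 CPM of fibroblast (left), macrophage (middle) and lymphocyte markers (right), 1 point per library, coloured by group and labelled with the library number. In the fibroblast panel the Gαq libraries lie from 7.60 upward and the WT libraries below that except WT CD 5 at 7.77, and Gαq CD 9 and WT CD 5 lie highest in all panels, at 1.61 and 1.47.

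With the fibroblast, macrophage or lymphocyte mean as a further term in the model of genotype and diet, fewer members were called by genotype, while the cardiomyocyte mean left the count at 3 (Ccnd1 in place of Cdk6). None was called with the fibroblast mean, when 647 of all genes were called in place of 3196. The log2 difference of Ccnd2 was then 0.61 (adjusted p = 0.43), that of Rrm2 -0.69 (adjusted p = 0.151) and that of Cdk6 -0.36 (adjusted p = 0.452). Only Ccnd2 was called with the macrophage mean (0.93, adjusted p = 0.0115), beside 1740 of all genes, where Rrm2 had -0.61 (adjusted p = 0.0504) and Cdk6 -0.21 (adjusted p = 0.4). None was called with the lymphocyte mean, beside 1245 of all genes, where Ccnd2 had 0.85 (adjusted p = 0.106), Rrm2 -0.36 (adjusted p = 0.492) and Cdk6 -0.39 (adjusted p = 0.282). With the atrial mean, chosen after seeing the data, 2 were called (Ccnd2 and Rrm2), beside 2774 of all genes. Cdk6 then had -0.35 (adjusted p = 0.0621), so it was called with none of these marker means. The median difference of the mitotic genes was -0.76 with the fibroblast mean, -0.39 with the macrophage mean and -0.38 with the lymphocyte mean. Genotype and the fibroblast and lymphocyte means differ together in these groups, so their parts cannot be told apart.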

How the data were processed

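RNA of 18 left ventricles was poly(A)-selected and sequenced as paired reads. Per the labels and methods, the authors aligned reads to mm10 with STAR 2.6.0c and counted unique, properly paired reads on the same strand over nuclear-encoded genes with featureCounts of Subread 1.6.2. The deposited table holds raw counts per Ensembl gene. A deposited table of transformed values was not used.

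Symbols and positions came from GENCODE M21 (GRCm38), which held 55190 IDs (99.5%). Tests were run with edgeR 4.0.16 under R 4.3.3 (filterByExpr, TMM, quasi-likelihood F tests). Genes left out held 0.0906% of counts. P-values were adjusted by Benjamini-Hochberg across the genes tested and called under 0.05, and an adjusted p in the text comes from edgeR unless DESeq2 or voom is named. Genotype and diet came from a model with both, the other contrasts from 1 mean per group. CPM used TMM factors, and log2 CPM a prior count of 2.

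Alternatives were size factors, other filters, DESeq2 1.42.0, voom of limma 3.58.1, only the groups compared, marker means as covariates and each library left out. The steps were tested on simulated data. Values were given per library for members called in any comparison and for the 3 members with the smallest p by diet, and for mitotic genes chosen after their values were seen. Of other pathway genes, those called among the 3 with the smallest adjusted p by genotype in each role list were named. Members, lists and tests were chosen with earlier results of these data known. Spread between libraries was measured directly, so no counting intervals are given. No library was left out, and correlations of log2 CPM within groups ran from 0.971 to 0.988.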

Additional observations from a re-analysis of the deposited data

Results flagged for a closer look

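In 204 groups of values (each member, each role mean, each marker mean and the total count in each of the 4 groups), the highest or lowest library was tested for its gap to the next one against the whole range of the group. In 11 of these groups of values a library stood apart, over 9 libraries in all (WT CD 5 and WT ERTU 15 each in 2), and chance alone gives about 1 in 20 groups. Among the members the gap was 0.868 of the range for Ccne1 in WT CD 4 (0.926 CPM, the others from 1.6 to 1.73), 0.747 for Cdkn1b in WT ERTU 15 (53.8 CPM, the others from 77.2 to 87.2) and 0.975 for Cdkn2c in Gαq ERTU 17 (6.21 CPM, the others from 9.01 to 9.09). Mcm4 was low in WT ERTU 11 (gap 0.83; 8.58 CPM, the others from 11.3 to 11.9) and in Gαq ERTU 16 (gap 0.845; 10.4 CPM, the others from 11.8 to 12.1). A library stood high for 3 mitotic genes, namely Ccna2 in WT CD 5 (gap 0.837; 4.52 CPM, the others from 2.14 to 2.42), Aurka in WT CD 5 (gap 0.87; 1.57 CPM, the others from 0.855 to 0.926) and Ccnb2 in Gαq CD 9 (gap 0.735; 2.68 CPM, the others from 0.562 to 0.869). Beside the members, the total count of WT ERTU 15 was low (gap 0.71; 16075634 against at least 18036131), the lymphocyte mean of Gαq CD 7 was high (gap 0.786; 0.45 against at most -0.05) and the mural cell mean of Gαq CD 8 was high (gap 0.763; 7.09 against at most 6.54).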

How the results depend on the processing

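No paired analysis was possible because no column of the table carries a replicate number shared between the groups. By genotype, 3 members were called under size factors, without a filter, with a filter at a mean CPM of 1, with averaged contrasts and with the cardiomyocyte mean (Ccnd1 in place of Cdk6), and 4 by DESeq2 (Cdk2 added). Voom gave 6 (Ccnd1, Cdk2 and Aurkb added), the fibroblast mean 0, the macrophage mean 1, the lymphocyte mean 0 and the atrial mean 2 (Cdk6 lost). DESeq2 and voom called 3534 and 3910 of all genes by genotype, in place of 3196. On CD voom gave 2 (Ccnd1 added), beside 1734 of all genes in place of 1318. On ERTU DESeq2 gave 3, voom 6 and only the groups compared 3 (Mki67, Ccna2 and Aurkb but not Rrm2, with 35 members tested). The mean of atrial markers, an alternative chosen after seeing the data, gave 2. Ccna2 was called in all 4. These 4 fits called 1749, 2755, 1251 and 1002 of all genes on ERTU, in the same order, in place of 1330. Without a filter the 1 call on ERTU was Mki67 in place of Rrm2 (adjusted p = 0.0604). Leaving out 1 library gave 2 to 8 members by genotype, 0 to 1 on CD, 0 to 4 on ERTU, and 0 in each other comparison and slope. The calls among all genes in these fits ran from 2812 to 3458 by genotype, 788 to 1414 on CD and 946 to 1696 on ERTU. The median of the mitotic genes on ERTU ran from -1.23 to -0.78 over these fits and on CD from -0.34 to 0.23. With the atrial mean, 9 of 13 mitotic slopes on the fibroblast mean were above 0 (median 0.43), and 0 genes of all were called in place of 454. No log2 difference of a called gene changed sign. Among named genes, the largest adjusted p with 1 library left out was 0.0868 for Melk (not called in 13 of 18 fits), 0.0621 for Dut (3) and 0.0689 for Chek2 (2). Gmnn, Cenpf and Spc24 were called in every fit run. Depth limits the low mitotic genes.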
